A study of Rattus norvegicus with 26 samples.

Results

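Soleus libraries with a high level of Chrng were compared with libraries of the same group with a low level. Chrng encodes the gamma subunit of the muscle acetylcholine receptor. The libraries were chosen by their Chrng level alone, but this split and the gene lists below were set with earlier results of these data known. Within each of the 4 groups of the study, a library above the group median of Chrng in CPM (a gene's count scaled to a common library total) was called high, and a library below it low. The median library of each group of 5 was left out, which gave 12 high and 12 low libraries of 26 in all. High and low libraries are therefore not groups of the study. Within a group both kinds come from rats of the same housing and, by their genotype label, of the same line.

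All 26 libraries were made from soleus, the slow calf muscle used in standing, of aged female rats of the 44th generation of a pair of lines bred for high (HCR) or low (LCR) running capacity. HCR running and LCR running rats, 5 of each, were housed in pairs with a wheel for over 5 months, and HCR sedentary and LCR sedentary rats, 8 of each, had no wheel. Each runner was treated as its own replicate, with no term for the shared cage. The sources used here give no surgery, nerve injury or disease for any animal, and no age beyond "aged". Each library is bulk RNA of soleus, so that fewer cells of a type and less RNA per cell cannot be told apart in any value below.

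The acetylcholine receptor of muscle is a ring of subunits that opens when the motor nerve releases acetylcholine. In fetal muscle the ring contains the gamma subunit and lies along the whole fibre. After birth the epsilon subunit, encoded by Chrne, takes its place, and the receptor becomes restricted to the neuromuscular junction. When a fibre loses its nerve, the gene of the gamma subunit is transcribed again together with that of the alpha subunit, under control of the myogenic factors MyoD and myogenin.

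Chrng itself was used for the split, so its values are a description without a test. In the 12 high libraries Chrng lay between 14.8 and 86.7 CPM (median 28.5), which rested on 27 to 213 counts. In the 12 low libraries it lay between 2.01 and 20.2 CPM (median 9.40), on 3 to 44 counts. By group, the mean was 21.2 CPM in high against 9.50 CPM in low libraries of HCR running, 26.9 against 7.55 CPM in LCR running, 26.3 against 12.1 CPM in HCR sedentary and 52.0 against 10.2 CPM in LCR sedentary rats. The split was thus widest in LCR sedentary rats, with a ratio of 5.12, and narrowest in HCR sedentary rats, with a ratio of 2.18.

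Libraries close to the group median were separated by little. In HCR sedentary rats the lowest high library had 20.3 CPM and the highest low library 20.2 CPM, and their 95% Poisson intervals, which cover counting error only, ran from 14.4 to 27.9 and from 14.7 to 27.2 CPM. In HCR running rats the values were 14.8 and 11.8 CPM around a median library at 13.0 CPM, in LCR running rats 22.7 and 8.04 CPM around 13.3 CPM, and in LCR sedentary rats 29.4 and 16 CPM. The extremes of the series were both sedentary LCR rats, replicate 5 at 86.7 CPM and replicate 3 at 2.01 CPM.

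**Figure D1:**
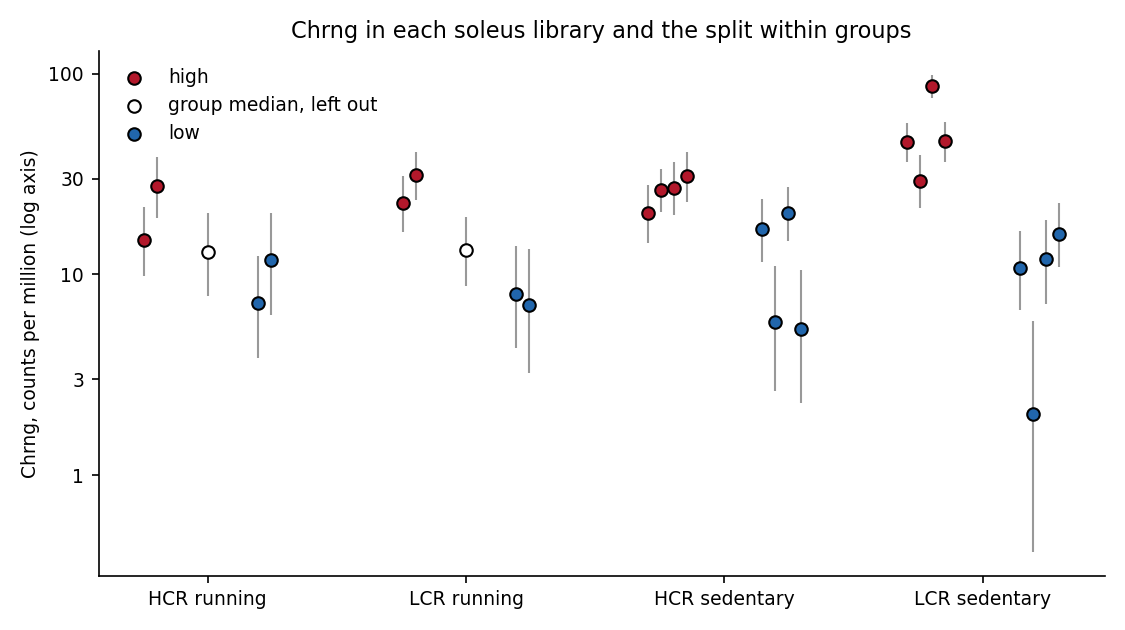
Chrng in each of the 26 libraries in CPM on a log axis, by group, with 95% Poisson intervals of the count as bars. Red points are the libraries called high, blue points those called low and open points the median libraries left out; the high points run from 14.8 to 86.7 CPM and the low points from 2.01 to 20.2 CPM.

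Total counts, in megacounts (M), ran from 1.27 to 2.52 M in the high and from 1.1 to 2.17 M in the low libraries, with means of 1.81 ± 0.358 and 1.66 ± 0.307 M (SD, n = 12 each), so high libraries were on average deeper. The libraries named HCR running 5 and LCR running 5 have titles that start with the opposite line. They were both low for Chrng and stayed under their genotype. No duplicate was found among the 76 within-group pairs of libraries, all of which differed by more than counting noise. Myh7, the slow myosin heavy chain that defines soleus, stood at 7510 to 12600 CPM in every library, against 251 to 4770 CPM for the fast type 2A myosin Myh2 and 10.2 to 307 CPM for the fastest myosin Myh4.

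Of 10188 genes tested besides Chrng, 210 differed between high and low libraries at an adjusted p under 0.05 (edgeR quasi-likelihood test with group as a term), which is 2.06% of genes. Of these, 147 were higher in libraries high for Chrng, 1.44% of genes tested, and 63 were lower, 0.618%. A total of 36 called genes were at least 2-fold higher and 5 at least 2-fold lower. The median log2 difference over all genes was 0.01, with 5273 genes above 0 and 4915 below it. The count was 133 without LCR running 3 and 321 without HCR sedentary 6, and it was 108 when the log2 total count entered as a covariate, 105 of them among the 210. Without both libraries of conflicting title 154 genes were called with the split kept, as 12 high against 10 low libraries. With the split made again, which counts both median libraries as low in their place, 220 were called, of which 178 were among the 210.

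**Figure D2:**
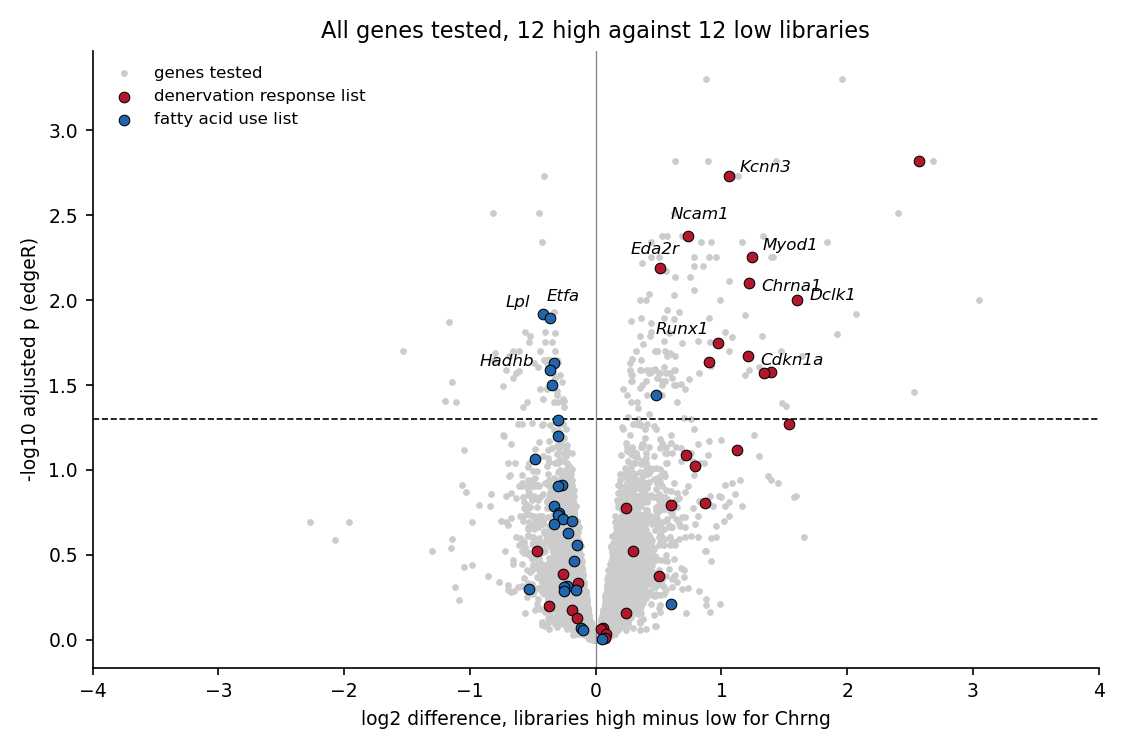
Each point is 1 of 10188 genes, with the log2 difference of libraries high minus low for Chrng on the x axis and the negative log10 of the adjusted p on the y axis; the dashed line marks an adjusted p of 0.05. Members of the denervation response list (red) that pass lie to the right, among them Eda2r at 0.51 and Dclk1 at 1.60, and the passing members of the fatty acid use list (blue) lie at -0.42 to -0.33 with Plin2 at 0.48.

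The other subunits of the receptor were described first, and their promoters are shown because the promoter of Chrng is a textbook target of MyoD and myogenin. These factors bind the E box, written CANNTG, of which CAGCTG is a preferred form that reads alike on both strands. The 250 bases before the start of each of the 5 genes are given 5′ to 3′ on the gene's strand, from RefSeq on the GRCr8 assembly, while the counts were made on mRatBN7.2. Capitals mark CAGCTG.
Chrng, chr9:95325734-95325983, plus strand: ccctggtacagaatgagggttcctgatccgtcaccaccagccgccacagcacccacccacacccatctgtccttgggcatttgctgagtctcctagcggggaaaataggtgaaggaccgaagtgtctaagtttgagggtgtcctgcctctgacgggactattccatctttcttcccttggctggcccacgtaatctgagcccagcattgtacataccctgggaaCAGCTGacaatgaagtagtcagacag
Chrna1, chr3:78877354-78877603, minus strand: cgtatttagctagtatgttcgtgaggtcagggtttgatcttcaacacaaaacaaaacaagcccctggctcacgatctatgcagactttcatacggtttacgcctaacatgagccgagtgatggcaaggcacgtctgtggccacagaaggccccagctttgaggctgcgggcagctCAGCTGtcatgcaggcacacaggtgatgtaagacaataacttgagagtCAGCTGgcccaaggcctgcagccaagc
Chrne, chr10:55834155-55834404, minus strand: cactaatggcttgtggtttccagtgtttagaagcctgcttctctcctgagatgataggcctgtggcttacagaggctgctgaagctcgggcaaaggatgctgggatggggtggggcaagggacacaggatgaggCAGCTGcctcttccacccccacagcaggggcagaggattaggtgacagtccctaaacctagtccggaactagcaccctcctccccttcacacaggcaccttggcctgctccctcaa
Chrnb1, chr10:55015108-55015357, minus strand: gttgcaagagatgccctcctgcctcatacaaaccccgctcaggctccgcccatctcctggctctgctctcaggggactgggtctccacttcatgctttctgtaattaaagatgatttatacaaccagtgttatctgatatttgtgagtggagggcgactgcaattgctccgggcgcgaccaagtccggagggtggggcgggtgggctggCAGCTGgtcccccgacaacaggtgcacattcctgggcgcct
Chrnd, chr9:95310066-95310315, plus strand: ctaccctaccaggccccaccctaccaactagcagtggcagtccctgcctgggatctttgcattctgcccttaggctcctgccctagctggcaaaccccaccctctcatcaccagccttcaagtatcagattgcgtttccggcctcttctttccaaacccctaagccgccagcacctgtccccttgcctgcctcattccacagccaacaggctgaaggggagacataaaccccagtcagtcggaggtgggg

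Counted back from the start, CAGCTG lay at bases -26 to -21 of Chrng, at -75 to -70 and -27 to -22 of Chrna1, at -116 to -111 of Chrne and at -41 to -36 of Chrnb1. The window of Chrnd held no CAGCTG, and its E box was CACCTG at -79 to -74. The motif was common: 12.0% of 33469 windows of the table held CAGCTG. A window was found by symbol for 8212 of the 10188 genes tested, among them 113 of the 147 that were higher and 49 of the 63 that were lower. CAGCTG stood in 13.3% of the higher and 10.2% of the lower genes, against 12.2% of all genes tested with a window. Any CANNTG stood in 57.5% of the higher, 69.4% of the lower and 55.5% of the tested genes. The called genes of either direction thus held CAGCTG at about the share of all tested genes, and a match in a window does not show that a factor binds there.

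Chrna1, the alpha subunit that carries most of the acetylcholine binding site, had 13.2, 22.2 and 45.6 CPM (lowest, median and highest) in the 12 high libraries, against 3.36, 9.89 and 17.3 CPM in the 12 low libraries. All 12 high libraries lay above the mean of their group and 9 of 12 low libraries below it, and the ranges overlapped at 13.2 to 17.3 CPM. Chrna1 was 2.33-fold higher (log2 difference 1.22, SE 0.24, adjusted p = 0.0079, edgeR) and higher in high libraries of all 4 groups. It kept its call in all 24 refits without 1 library.

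Chrne, the epsilon subunit that replaces gamma in the adult receptor, was higher in the same libraries as its fetal counterpart, not lower. It had 4.81, 6.63 and 11.4 CPM in high libraries, against 1.1, 4.19 and 5.37 CPM in low libraries, few counts in each. No low library reached the level that the filter on low counts asks for. Chrne thus entered the test only through high libraries, which limits what its call can show. The log2 difference was 0.91 (SE 0.21, adjusted p = 0.0177, edgeR), with 11 of 12 high libraries above their group mean. Chrne kept its call without both libraries of conflicting title when the split was kept (0.97, adjusted p = 0.0224). It missed the threshold with both median libraries counted as low (0.72, adjusted p = 0.0524), with them as low in place of the libraries of conflicting title (0.73, adjusted p = 0.0757) and with Chrng as a continuous term over 26 libraries (0.31 per log2 unit, adjusted p = 0.119).

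The remaining subunits moved less. Chrnb1, the beta subunit, averaged 65.8 ± 9.83 CPM in high and 49.7 ± 10.3 CPM in low libraries (SD, n = 12 each), a log2 difference of 0.34 (SE 0.09) whose adjusted p, 0.05 when rounded, missed the threshold in edgeR. Chrnd, the delta subunit, averaged 272 ± 47.6 CPM in high and 220 ± 32.2 CPM in low libraries (0.24, SE 0.09, adjusted p = 0.168). Of the 4 subunits tested, 2 passed, Chrne with the limit given above, and all 4 lay above 0, with a median of 0.62 against 0.01 over all genes. Chrnd is the gene before Chrng in the RefSeq order and Eif4e2, a cap-binding translation factor, the gene after it. Eif4e2 stood at 0.06 (SE 0.06, adjusted p = 0.728), so neither neighbour passed.

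Several genes known to be induced in muscle that has lost its nerve were higher in the libraries high for Chrng. The denervation response list, chosen with earlier results of these data known, holds 37 genes, of which 32 passed the filter on low counts. Of these, 12 rose, where 1.44% of all genes tested rose, and 0 fell, where 0.618% fell. Of the 32, 26 lay above 0, and the list's median was 0.66 against 0.01 over all genes. Among the 12 were Cdkn1a, Chrna1, Dclk1, Eda2r, Gadd45a, Gdf5, Kcnn3, Mt2A, Myod1, Ncam1 and Runx1. The call of Gdf5 carries a limit given below. Leaving out 1 library gave 10 to 14 members.

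Kcnn3, a small-conductance calcium-activated potassium channel of denervated muscle, had 65.4, 104 and 148 CPM in high libraries and 28.2, 45.6 and 69.9 CPM in low libraries. The difference was 1.06 (SE 0.16, adjusted p = 0.00185), with 11 of 12 libraries on its side of the group mean in each set. Ncam1, the neural cell adhesion molecule that covers the surface of denervated and regenerating fibres, had 81.3, 98.7 and 181 CPM in high libraries and 32.1, 61.7 and 88.2 CPM in low ones (0.73, SE 0.13, adjusted p = 0.00417). All 12 high libraries lay above their group mean for Ncam1, and the ranges overlapped only at 81.3 to 88.2 CPM.

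Among the transcription factors of the list, 2 passed. Runx1, which is induced by denervation and in mice limits wasting of the denervated fibre, had 292, 597 and 735 CPM in high and 133, 258 and 473 CPM in low libraries (0.97, SE 0.21, adjusted p = 0.0178). Myod1, the myogenic factor MyoD, had 10.4, 36 and 72.2 CPM in high and 9.22, 15.4 and 29.9 CPM in low libraries (1.24, SE 0.22, adjusted p = 0.00555). Its ranges overlapped more than those of Kcnn3, with 9 of 12 high libraries above their group mean. Myog, the related factor myogenin, averaged 63.3 ± 22.1 CPM in high and 34.9 ± 14.6 CPM in low libraries and did not pass (0.79, adjusted p = 0.0951).

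Among the secreted and signalling members, Gdf5, a bone morphogenetic protein that denervated mouse muscle makes, differed by 1.34 (SE 0.33, adjusted p = 0.027). Gdf5 was higher in 3 of the 4 groups, with -0.12 in HCR running rats, and kept its call in 18 of 24 refits (adjusted p up to 0.0595). Too few low libraries reached the level that the filter on low counts asks for, so Gdf5 entered the test only through high libraries. That limits what its calls can show. Dclk1, a microtubule-associated kinase, had 43.4, 97.5 and 291 CPM in high and 7.84, 33.7 and 60.9 CPM in low libraries (1.60, SE 0.31, adjusted p = 0.00992). Mt2A, a metal-binding metallothionein, differed by 1.39 (SE 0.32, adjusted p = 0.0266). Mt2A missed the threshold in 6 of 24 refits (adjusted p up to 0.0602) and without both libraries of conflicting title (1.33, adjusted p = 0.064, with the split kept).

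Members that did not pass, named after their values were seen, include Mt1 (1.54, adjusted p = 0.0539), the stretch-responsive cofactor Ankrd1 (1.12, adjusted p = 0.0762), the histone deacetylase Hdac4 (0.72, adjusted p = 0.0812) and the embryonic myosin Myh3 (0.50, adjusted p = 0.419). Trim63, the ubiquitin ligase MuRF1 that is raised early in many kinds of wasting, averaged 269 ± 48.7 CPM in high and 309 ± 90.6 CPM in low libraries (-0.26, adjusted p = 0.412). Fbxo32, the ligase atrogin-1, averaged 247 ± 50.2 CPM in high and 227 ± 52.9 CPM in low libraries (0.06, adjusted p = 0.848). In the list of atrophy ligases and FoxO genes, 0 of 23 members passed, 11 lay above 0 and 12 below, with a median of -0.03.

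**Figure D3:**
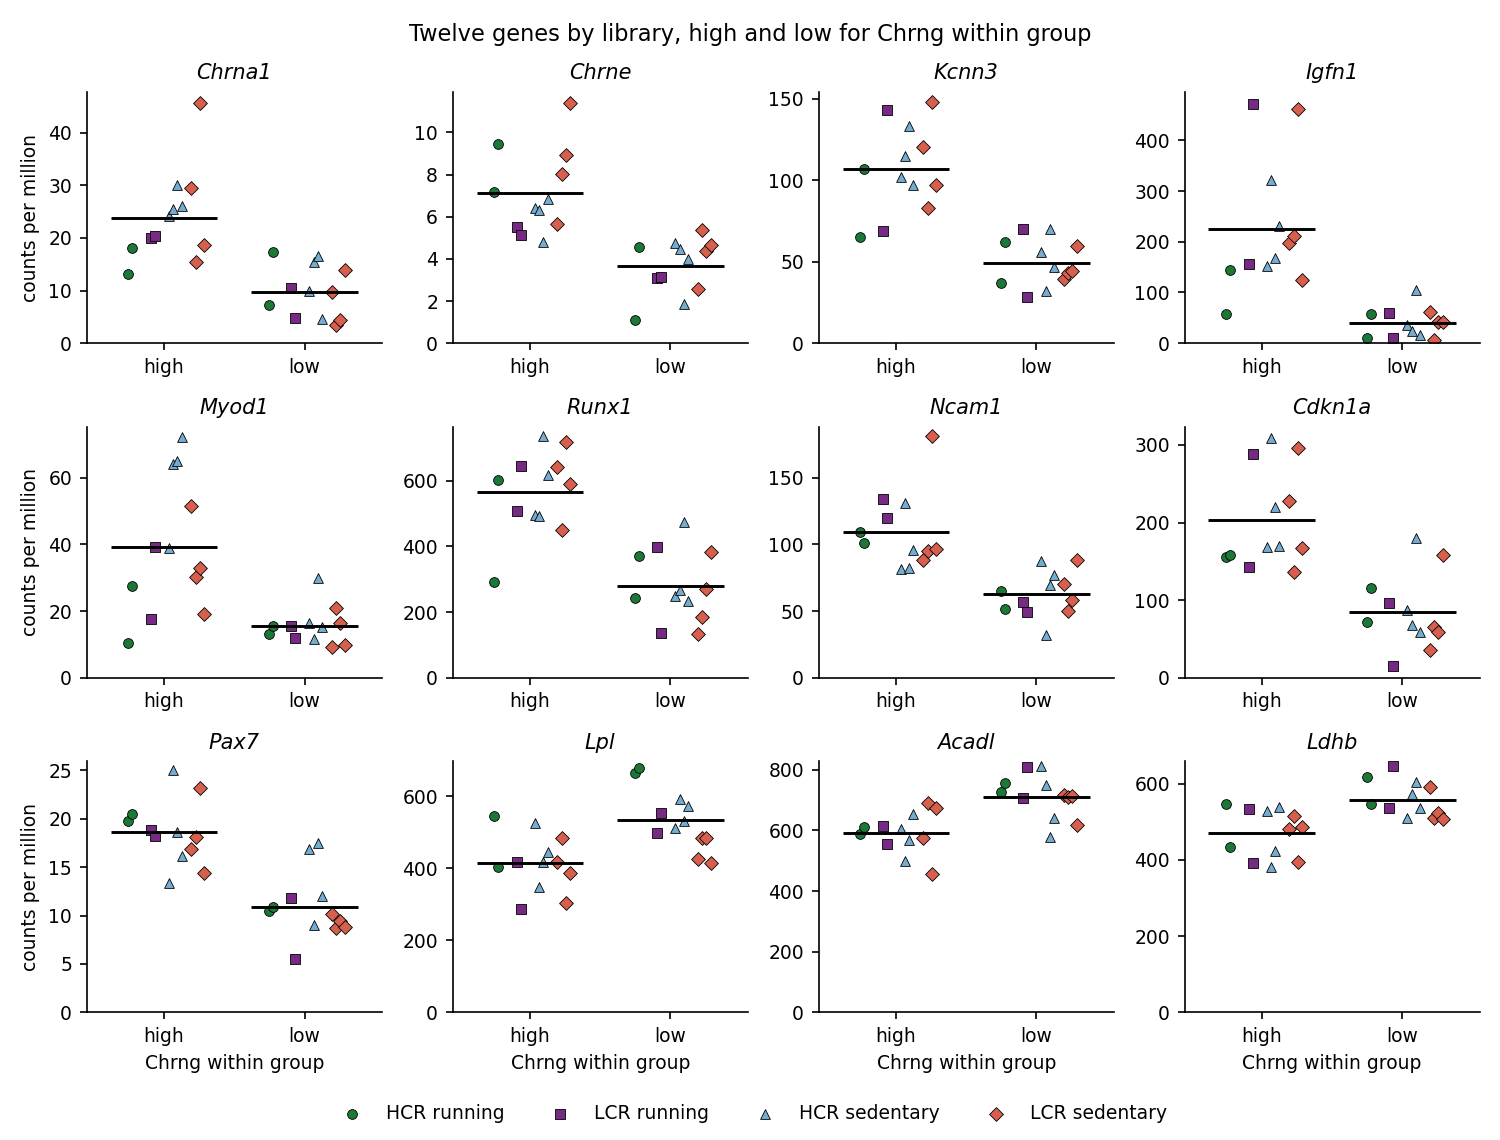
CPM of 12 genes in each of the 24 libraries, high for Chrng on the left and low on the right of each panel; symbols give the group and horizontal bars the mean over 12 libraries. Kcnn3 ran from 65.4 to 148 CPM in high and from 28.2 to 69.9 CPM in low libraries, while Lpl, Acadl and Ldhb run the other way with overlapping ranges.

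Of the genes of the neuromuscular junction, 2 passed. Of 26 members tested of 35, 2 rose, where 1.44% of all genes tested rose, 0 fell and 17 lay above 0, with a median of 0.05. The 2 were Chrne and Erbb2, a receptor tyrosine kinase through which neuregulin acts on muscle. Erbb2 was a low transcript, at 0, 4.24 and 6.92 CPM in high and 0, 0.645 and 2.76 CPM in low libraries (1.92, SE 0.44, adjusted p = 0.0159). No low library reached the level that the filter on low counts asks for, so Erbb2 entered the test only through high libraries. The filter kept Erbb2 in 15 of 24 refits without 1 library. Its call in all 15 is no support for the difference, because the filter selected on the high side. Chrne entered the test in the same way, so both calls of this list carry that limit. Musk, the kinase that agrin activates to cluster receptors, stood at 0.87 (SE 0.31, adjusted p = 0.157) and Rapsn, which anchors the receptor, at 0.78 (SE 0.25, adjusted p = 0.107). Prkar1a, a regulatory subunit of protein kinase A, stood at 0.20 (adjusted p = 0.082) and the basement membrane laminin Lama5 at 0.40 (adjusted p = 0.194). The agrin receptor Lrp4 (0.18, adjusted p = 0.694), Dok7 (-0.02, adjusted p = 0.987) and Agrn (-0.15, adjusted p = 0.746), which form the rest of the clustering pathway, lay near 0 and were named after their values were seen.

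Genes of developing and regenerating muscle lay mostly higher. Of 18 members tested, 17 lay above 0 with a median of 0.53, and 5 rose, where 1.44% of all genes rose, and 0 fell. Igfn1, a muscle protein of immunoglobulin and fibronectin domains, had 57.7, 182 and 472 CPM in high and 6.04, 38.6 and 104 CPM in low libraries (2.40, SE 0.38, adjusted p = 0.00307, edgeR). All 12 high libraries lay above their group mean. Pax7, the transcription factor that marks satellite cells, the stem cells of muscle, had 13.4, 18.4 and 25 CPM in high and 5.49, 10.4 and 17.5 CPM in low libraries (0.69, SE 0.13, adjusted p = 0.00417). Peg3, an imprinted zinc finger gene of muscle progenitors, had 40.2, 53.2 and 81.8 CPM in high and 24.4, 35.2 and 48.6 CPM in low libraries (0.57, SE 0.11, adjusted p = 0.00417). Myod1 and Ncam1 belong to this list as well as to the denervation response. The myoblast fusion gene Mymx (1.52, adjusted p = 0.0539), the perinatal myosin Myh8 (1.06, adjusted p = 0.154) and the cardiac actin Actc1 (0.89, adjusted p = 0.0815) did not pass and were named after their values were seen.

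Satellite cell markers other than Pax7 did not pass. Of 11 tested of 15, 9 lay above 0, with a median of 0.20. Their summed level ran from 211 to 332 CPM (median 269) in high and from 190 to 296 CPM (median 238) in low libraries, and no marker of the 15 was at 0 in every library. Cdh15, the cadherin of satellite cells and myoblasts, stood at 0.32 (adjusted p = 0.501, named after its values were seen). The part of these cells in the differences of Pax7, Myod1 and Ncam1 was not tested.

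Targets of p53 and genes of cell cycle arrest were among the called genes. Of 16 tested, 5 rose and 1 fell, where 1.44% of all genes rose and 0.618% fell, and 12 lay above 0, with a median of 0.15. Cdkn1a, the inhibitor p21, had 136, 170 and 309 CPM in high and 14.9, 69.5 and 180 CPM in low libraries (1.21, SE 0.27, adjusted p = 0.0214). All 12 high libraries lay above their group mean. Gadd45a, which denervated muscle induces, had 187, 358 and 413 CPM in high and 57.2, 168 and 290 CPM in low libraries (0.90, SE 0.20, adjusted p = 0.0232). Cdkn2b, the inhibitor p15, averaged 6.80 ± 2.82 CPM in high and 2.41 ± 1.58 CPM in low libraries (1.39, SE 0.28, adjusted p = 0.00555). Too few low libraries reached the level that the filter on low counts asks for. Cdkn2b thus entered the test only through high libraries, which limits what its call can show. Eda2r, a receptor of ectodysplasin A2 whose level increases with age in many tissues, had 189, 286 and 405 CPM in high and 152, 183 and 267 CPM in low libraries (0.51, SE 0.10, adjusted p = 0.0065). Bbc3, the cell death protein PUMA, was higher by 0.91 (adjusted p = 0.0235) and was named after its values were seen. The p53 targets Mdm2 (0.04, adjusted p = 0.862), Ccng1 (0.00, adjusted p = 1.00) and Bax (0.06, adjusted p = 0.881) lay near 0 and were also named after their values were seen.

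Of 20 ion channel genes of muscle, 4 rose, where 1.44% of all genes rose, and 0 fell, with 7 above 0 and a median of -0.06. Besides Kcnn3 they included Kcnq5, a voltage-gated potassium channel, and Cacnb1, the beta subunit of the calcium channel of excitation-contraction coupling. Kcnq5 averaged 90.4 ± 20.4 CPM in high and 62.5 ± 15.9 CPM in low libraries (0.47, SE 0.11, adjusted p = 0.0199), and did not pass with Chrng as a continuous term (0.18 per log2 unit, adjusted p = 0.11). Cacnb1 averaged 238 ± 32.8 CPM in high and 187 ± 32.4 CPM in low libraries (0.28, SE 0.08, adjusted p = 0.0399), kept its call in 9 of 24 refits (adjusted p up to 0.101) and lost it without both libraries of conflicting title (adjusted p = 0.0684, with the split kept) and with the median libraries counted as low (adjusted p = 0.123).

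Genes of fat oxidation lay mostly lower in libraries high for Chrng, by small amounts. Of 29 tested, 26 lay below 0, 5 fell and 1 rose, where 0.618% of all genes fell and 1.44% rose, and the median was -0.27. Lpl, the lipase that frees fatty acids from lipoproteins for uptake, had 286, 417 and 544 CPM in high and 414, 522 and 678 CPM in low libraries (-0.42, SE 0.09, adjusted p = 0.012). Etfa, which passes electrons from acyl-CoA dehydrogenases to the respiratory chain, had 116, 166 and 203 CPM in high and 174, 209 and 241 CPM in low libraries (-0.36, SE 0.08, adjusted p = 0.0127). Both genes were lower in high libraries of all 4 groups, with overlapping ranges. They were named for their small p over these same groups, so the shared sign is no separate support. In sedentary rats alone 0 members of the list fell at the threshold, and in running rats alone 1.

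Acadl, the long-chain acyl-CoA dehydrogenase, averaged 590 ± 68.1 CPM in high and 711 ± 71.0 CPM in low libraries (-0.33, SE 0.08, adjusted p = 0.0235), and Hadhb, the thiolase subunit of the trifunctional protein, 182 ± 38 CPM in high and 224 ± 39.5 CPM in low libraries (-0.36, SE 0.09, adjusted p = 0.0259). Acads, the short-chain dehydrogenase, was lower by -0.35 (adjusted p = 0.0315) and Plin2, a coat protein of lipid droplets, higher by 0.48 (adjusted p = 0.0361), both named after their values were seen. Acadl kept its call in 21 of 24 refits without 1 library and Hadhb in 18, and both lost it without both libraries of conflicting title, with the split kept (adjusted p = 0.0903 and 0.0883). The count of 5 members was 2 without HCR sedentary 4, LCR running 3 or LCR running 5, 3 without LCR sedentary 5 or HCR sedentary 3, 8 without LCR sedentary 4 and 9 without LCR running 1.

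Most other energy genes lay slightly below 0, and 3 passed. Of 56 subunits of complexes I to V, 54 lay below 0 with a median of -0.16, and 1 fell, where 0.618% of all genes fell, the complex I subunit Ndufa8 (-0.25, adjusted p = 0.0423, named after its values were seen). Of 19 genes of glycolysis and glycogen use, 16 lay below 0 with a median of -0.13, and 2 fell, against the same 0.618%. Without both libraries of conflicting title and with the split kept, neither of the 2 passed (adjusted p = 0.0719 for Ldhb and 0.125 for Pygm). Ldhb, the lactate dehydrogenase of oxidative tissue, averaged 471 ± 62.6 CPM in high and 558 ± 47.4 CPM in low libraries (-0.31, SE 0.08, adjusted p = 0.0224) and missed the threshold without LCR running 3 and without LCR running 5 (adjusted p up to 0.0541). Pygm, the glycogen phosphorylase of muscle, averaged 251 ± 34.7 CPM in high and 299 ± 53.5 CPM in low libraries (-0.31, SE 0.08, adjusted p = 0.0341) and kept its call in 13 of 24 refits (adjusted p up to 0.0829). Phka1, a subunit of phosphorylase kinase (-0.38, adjusted p = 0.0764), and Gys1, the glycogen synthase of muscle (-0.23, adjusted p = 0.123), did not pass.

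No member of the slow-fibre and fast-fibre contractile lists passed. Myh7 averaged 10400 ± 1230 CPM in high and 11100 ± 917 CPM in low libraries (-0.16, SE 0.08, adjusted p = 0.372). Myh2 averaged 1640 ± 988 and 2510 ± 1740 CPM in high and low libraries (-0.47, SE 0.37, adjusted p = 0.615). Myh1, the fast type 2X myosin, averaged 560 ± 374 and 205 ± 144 CPM (1.37, SE 0.42, adjusted p = 0.108 in edgeR; called by DESeq2 at 1.36, adjusted p = 0.028), and Myh4 79.3 ± 43.5 and 70.4 ± 85.2 CPM (0.30, SE 0.49, adjusted p = 0.849). The spread between libraries was wide for the 3 fast myosins, and a p above the threshold does not show that their levels were alike. Of 17 slow-fibre genes 15 lay below 0 (median -0.15) and of 18 fast-fibre genes 10 lay above it (median 0.07), with 0 called in either list. Of the libraries high for Chrng, 4 of 12 lay above the group median of Myh2, and of those low for Chrng, 4 of 12 lay below it. The same counts for Col1a1, the main collagen, were 7 and 7, against 11 and 10 for Chrna1.

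**Figure D4:**
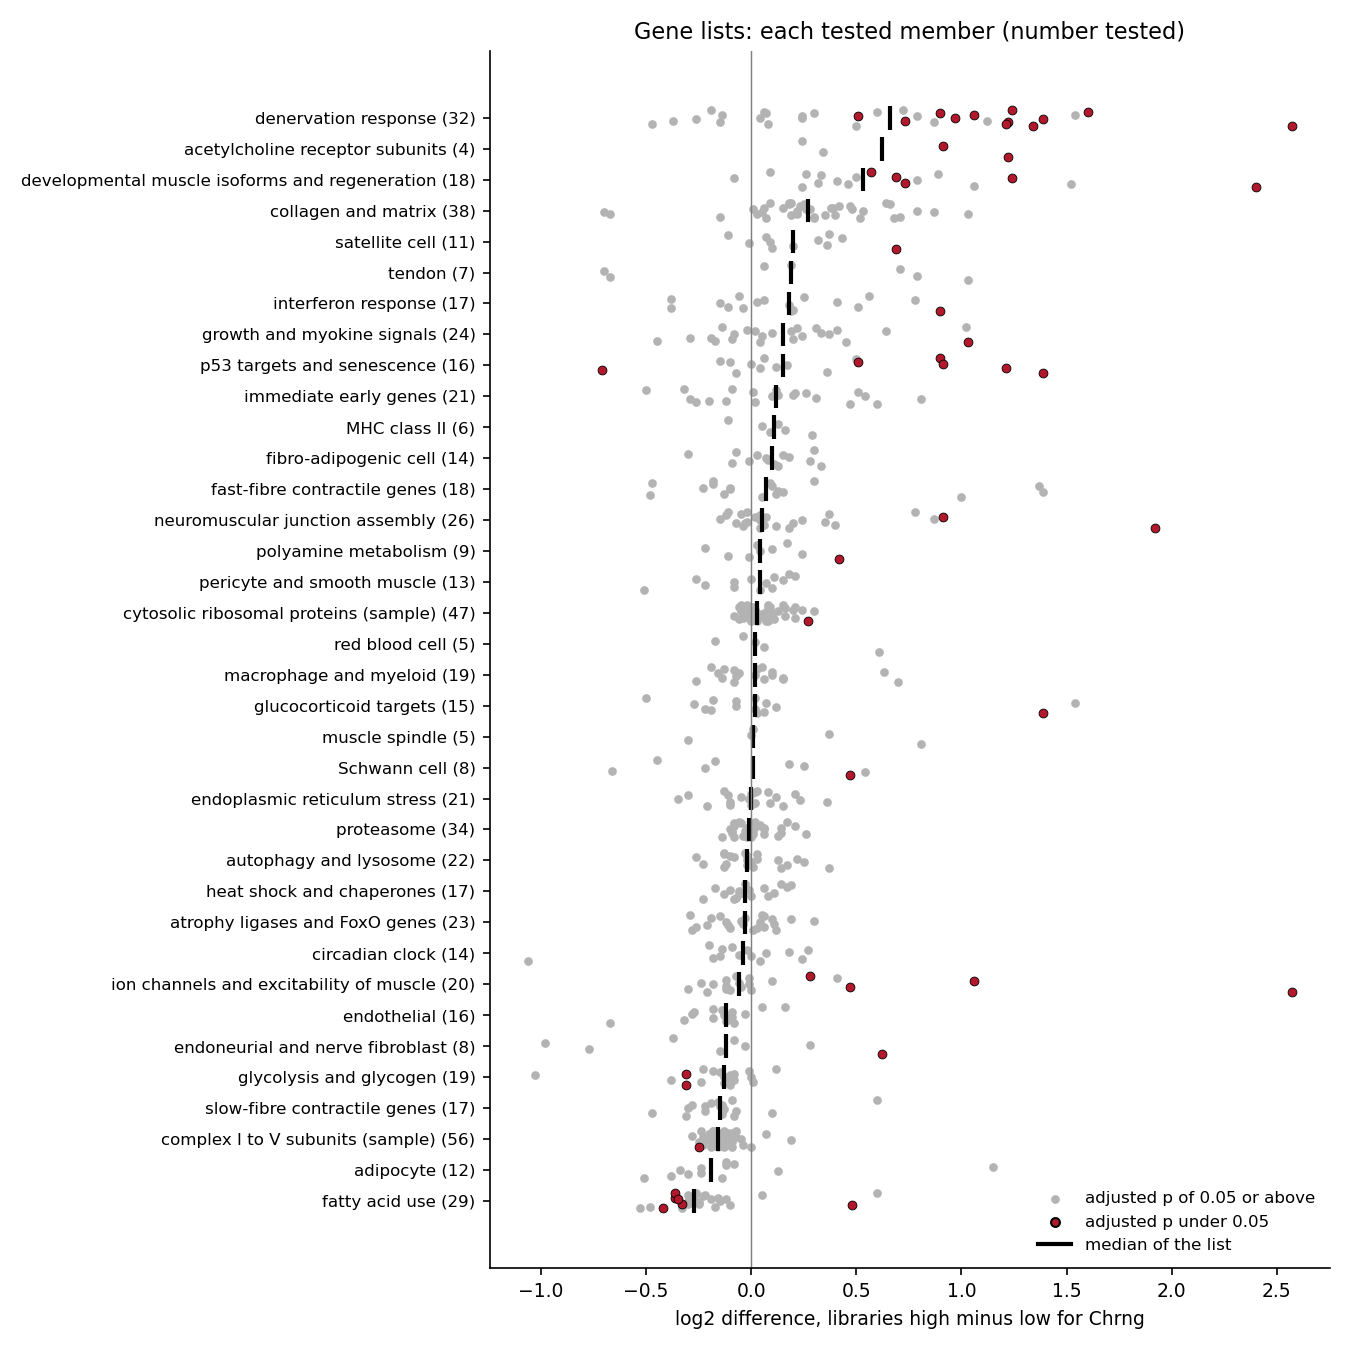
Log2 difference of libraries high minus low for Chrng for each tested member of the gene lists with 4 or more tested members, ordered by list median (black bars); red points passed at an adjusted p under 0.05. The denervation response has the highest median, 0.66, and fatty acid use the lowest, -0.27.

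The genes with the largest rises, by a rule on size among called genes, included several outside these lists. Igha, the constant region of immunoglobulin A, had 1.80, 21.2 and 84.4 CPM in high and 0, 1.16 and 21.6 CPM in low libraries (3.05, SE 0.59, adjusted p = 0.00992). It varied widely within both sets, with 10 of 12 high libraries above their group mean. Too few low libraries reached the level that the filter on low counts asks for, so Igha entered the test only through high libraries. Of 13 T and B cell markers 1 passed the filter on low counts, the T helper marker Cd4 (0.53, adjusted p = 0.247), and the B cell marker Ms4a1 was at 0 in every library. The summed level of the list ran from 5.65 to 11.9 CPM in high and from 0 to 8.98 CPM in low libraries, and the part of blood-borne cells in Igha was not tested.

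Col19a1, a collagen of muscle and other basement membrane zones, differed by 2.68 (SE 0.45, adjusted p = 0.00152), at 1.1, 4.00 and 16.9 CPM in high and 0, 0.520 and 2.58 CPM in low libraries. No low library reached the level that the filter on low counts asks for, so Col19a1 entered the test only through high libraries. The filter kept it in 14 of 24 refits without 1 library. Its call in all 14 is no support for the difference, because the filter selected on the high side. Emb, the cell adhesion protein embigin, which has been tied to nerve sprouting in mouse muscle, had 20.3, 58.5 and 125 CPM in high and 1.57, 17.3 and 52.7 CPM in low libraries (1.84, SE 0.31, adjusted p = 0.00455). Adap2, a membrane-bound GTPase-activating protein, had 68.9, 114 and 180 CPM in high and 7.84, 40.7 and 74.5 CPM in low libraries (1.43, SE 0.21, adjusted p = 0.00152). Adap2 separated the 12 high from the 12 low libraries in full after subtraction of group means.

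Slc51a, a subunit of a steroid and bile acid transporter, differed by 2.07 (SE 0.41, adjusted p = 0.012), the fibrillar collagen Col11a1 by 1.64 (SE 0.36, adjusted p = 0.0214) and Tph1, the tryptophan hydroxylase that starts serotonin synthesis outside the brain, by 1.47 (SE 0.32, adjusted p = 0.0199). Each was higher in high libraries of all 4 groups and was called in all 24 refits without 1 library. Too few low libraries reached the level that the filter on low counts asks for in Slc51a, which entered the test only through high libraries. The calls of Slc51a in the refits are therefore no support for its difference. Krt18, an intermediate filament protein, averaged 12.1 ± 3.36 CPM in high and 3.84 ± 4.44 CPM in low libraries (1.51, SE 0.39, adjusted p = 0.0418) and kept its call in 6 of 24 refits (adjusted p up to 0.0771). Krt18 entered the test in the same way as Slc51a.

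The falls named were smaller, and 3 of 11 exceeded 2-fold. Cacna1e, a neuronal-type calcium channel subunit, had 1.58, 4.18 and 7.81 CPM in high and 0.909, 13.0 and 23.7 CPM in low libraries (-1.53, SE 0.34, adjusted p = 0.0199), and did not pass with Chrng as a continuous term (-0.53, adjusted p = 0.161). Adig, a small adipocyte protein, averaged 6.87 ± 4.17 CPM in high and 15.3 ± 9.15 CPM in low libraries (-1.20, SE 0.31, adjusted p = 0.0392). Wnt16, a secreted Wnt ligand, averaged 14.6 ± 9.46 and 28.8 ± 8.20 CPM in high and low libraries (-1.11, SE 0.28, adjusted p = 0.0396). Adig kept its call in 6 of 24 refits (adjusted p up to 0.0913) and Wnt16 in 9 (up to 0.075), and both missed it without both libraries of conflicting title, with the split kept (adjusted p = 0.0849 for Adig and 0.0807 for Wnt16). The other 8 ranged from -0.82 for the centromere protein Cenps to -0.61 for the GTPase Rhou and for Tatdn3, with the axonemal dynein Dnah11, Fam107a, the Golgi protein Golm1, the cardiac myosin light chain kinase Mylk3 and the progestin receptor family member Paqr4 between them. All 11 were lower in high libraries of all 4 groups. Fam107a kept its call in 15 of 24 refits without 1 library (adjusted p up to 0.0883), Paqr4 in 17 (up to 0.0586), Rhou in 18 (up to 0.0561), and Golm1 in 23, losing it without LCR sedentary 1 (0.0505). With Chrng as a continuous term Cenps (adjusted p = 0.111), Tatdn3 (adjusted p = 0.248), Fam107a (adjusted p = 0.0898) and Mylk3 (adjusted p = 0.0548) did not pass either. With the median libraries counted as high, Cacna1e and Tatdn3 kept their calls and the other 9 lost them. Dnah11, Golm1, Paqr4 and Rhou missed the threshold without both libraries of conflicting title, with the split kept (adjusted p = 0.0508 to 0.0736).

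Markers of other cells were read beside these differences. Of 20 Schwann cell markers 8 were tested, 4 lay above 0 and 1 rose, where 1.44% of all genes rose, Cnp (0.47, adjusted p = 0.0256), an enzyme of myelinating and other cells, with a median of 0.01. Their summed level ran from 232 to 359 CPM in high and from 143 to 414 CPM in low libraries. Of 13 nerve and endoneurial markers 8 were tested, and 6 lay below 0, with a median of -0.12. The 1 that rose, where 1.44% of all genes rose, was the transcription factor Sox9 (0.62, adjusted p = 0.0257). The neurofilament Nefl stood at -0.98 (adjusted p = 0.202). Of 19 macrophage markers 10 lay above 0 with a median of 0.02, and of 16 endothelial markers 14 lay below 0 with a median of -0.12, with 0 called in either. Cnp, Sox9 and Nefl were named after their values were seen.

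Collagen and matrix genes lay above 0 in 35 of 38 cases, with a median of 0.27 and 0 called. Their summed level ran from 1980 to 4090 CPM (median 2530) in high and from 1570 to 3570 CPM (median 2130) in low libraries. Col3a1, the collagen of loose connective tissue, had the smallest adjusted p of the list (0.68, adjusted p = 0.0746). Fst, an inhibitor of myostatin and activin, was the 1 of 24 growth signals that rose (1.03, adjusted p = 0.0155), where 1.44% of all genes rose. Single members also rose in other lists, where 1.44% of all genes tested rose, and a single call is not a result about its list. They were Gbp5 of 17 interferon response genes (0.90, adjusted p = 0.0127) and Sat1 of 9 polyamine genes (0.42, adjusted p = 0.0268). The others were Rpl3 of 47 ribosomal proteins (0.27, adjusted p = 0.0235), a share near that of all genes, and Mt2A of 15 glucocorticoid targets. These genes were named after their values were seen. In the proteasome, autophagy, heat shock, endoplasmic reticulum stress, circadian clock, immediate early, fibro-adipogenic, pericyte, adipocyte, tendon, spindle, red blood cell and MHC class II lists 0 members were called, and their medians lay between -0.19 and 0.19.

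Over all 26 libraries, the level of each gene was set beside that of Chrng after subtraction of group means on the log2 CPM scale, as a description without a test, since these are the libraries that chose the split. Among 9722 genes the highest Pearson correlations were those of Igfn1 (0.90), Tp53bp1 (0.88), Lgals1 (0.87), Tph1 (0.87) and Sil1 (0.87). Tp53bp1 encodes a DNA break repair protein, Lgals1 the lectin galectin-1 and Sil1 a cofactor of the endoplasmic reticulum chaperone BiP whose loss causes muscle and cerebellar disease in humans. The lowest were those of Ptprb (-0.80), an endothelial phosphatase, Adig (-0.79), the sulfotransferase Sult1a1 (-0.77), the monooxygenase Fmo2 (-0.73) and the protease inhibitor Timp3 (-0.73). The points share library, depth and dissection. Chrna1 stood at 0.86, Chrnd at 0.70, Chrnb1 at 0.64 and Chrne at 0.50.

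**Figure D5:**
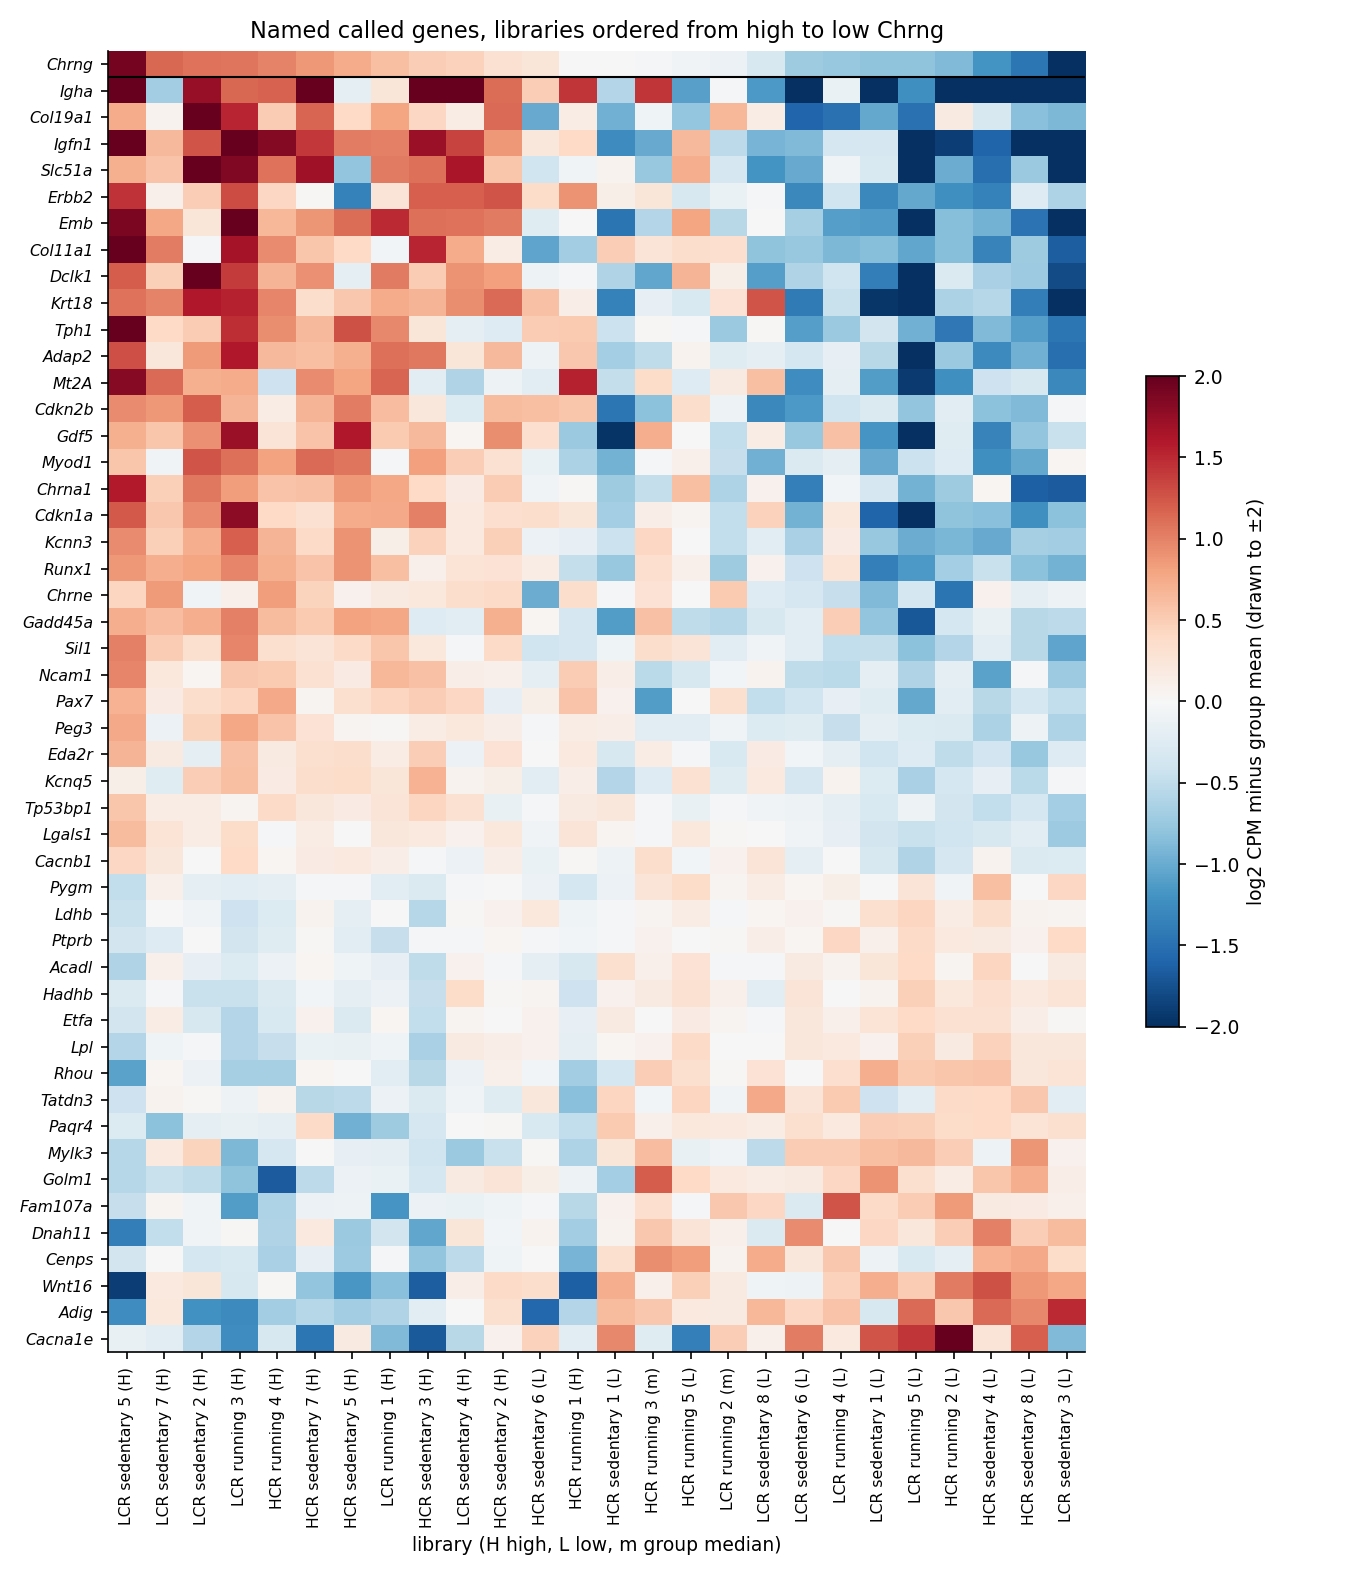
Log2 CPM minus the group mean, drawn to ±2, for Chrng (top row) and the called genes named by rule, in 26 libraries ordered from high to low Chrng after subtraction of the group mean; H, L and m mark high, low and median libraries. Genes that rose are red at the left, and the palest rows are those with small differences, such as Cacnb1 at 0.28 and Ldhb at -0.31.

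The difference between high and low libraries was then compared between the study's conditions. For running minus sedentary rats, 0 of 10188 genes passed the interaction test (edgeR, lowest adjusted p = 0.798). At an unadjusted p under 0.05 there were 409 genes in edgeR and 243 in DESeq2, which also called 0. For HCR minus LCR rats, 0 genes passed in edgeR (lowest adjusted p = 0.294) and 1 in DESeq2, the nicotinamide riboside kinase Nmrk2. At an unadjusted p under 0.05 there were 443 genes in edgeR and 297 in DESeq2. Without HCR running 5, 1 gene passed the second test in edgeR, Cyfip2, a regulator of actin assembly that stood at -0.99 and -0.47 in HCR running and HCR sedentary rats and at 1.74 and 1.12 in LCR running and LCR sedentary rats. A p above the threshold does not show that the differences were alike in the conditions compared.

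The contrast was also fitted in running and in sedentary rats alone, each with fewer libraries. In running rats, 4 high against 4 low libraries gave 26 called genes, 14 of them among the 210. The low libraries there included HCR running 5 and LCR running 5, whose titles start with the opposite line. If those titles are right, line and Chrng level are mixed in this fit. In sedentary rats, 8 against 8 gave 28, 26 of them among the 210. Of the denervation response, 1 member passed in running rats, Ncam1 (0.97, adjusted p = 0.00116), and 5 in sedentary rats. Chrna1 stood at 0.81 in running (adjusted p = 0.418) and 1.37 in sedentary rats (adjusted p = 0.0355), and Igfn1 at 2.41 (adjusted p = 0.518) and 2.39 (adjusted p = 0.0217). Lpl stood at -0.64 in running (adjusted p = 0.0369) and -0.32 in sedentary rats (adjusted p = 0.242). The signs were the same in both kinds of animal for these genes, and the interaction test above called none of them.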

How the data were processed

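RNA of soleus from 26 rats was read by 3' sequencing primed at the poly(A) tail, single-end, per the labels' protocols. The authors deposited whole-number read counts per gene, not normalised. The assembly mRatBN7.2 and the tools STAR, featureCounts, cutadapt, UMI-tools, FastQC and MultiQC are named in the submitters' processing notes. The sources used here do not give whether molecular identifiers were collapsed or strand was used, so counting precision may be lower than totals imply and overlapping, antisense or near-identical genes are uncertain. Of the columns, 0 belonged to no sample.

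Groups follow the genotype and the group in the description. Libraries were split by Chrng as described above. The test was that of edgeR 4.0.16 under R 4.3.3 (quasi-likelihood F test, robust, TMM factors, filterByExpr by group), with group and high or low as terms, and Benjamini-Hochberg adjustment over 10188 genes without Chrng. SE is the absolute log2 difference over the root of F. The biological coefficient of variation was 0.145. Group means were subtracted on the log2 CPM scale with a prior count of 2. Alternatives used DESeq2 1.42.0 and limma 3.58.1, and the fit was tested on simulated data.

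The libraries and the gene lists (750 genes, 739 in the table) were chosen with earlier results of these data known. Named genes are the 12 largest rises and falls among called genes with a symbol and average log2 CPM of at least 2, all receptor subunits, members of the denervation and junction lists that were called or among the 6 of smallest p, up to 4 members of other lists with 2 or more calls, 4 myosins and 5 genes at each end of the correlation with Chrng; a few of these genes are not reported here. Promoters are RefSeq windows on GRCr8.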

Additional observations from a re-analysis of the deposited data

Results flagged for a closer look

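Among the named genes, 256 pairs of a gene and a group were checked for a library whose gap to its nearest neighbour is large for the range of its group. Such a gap was found in 25 of them, 9.77%. The cut used gives about 1 in 20 for normally distributed values. Here it was applied to CPM without a log scale, and most of the genes were chosen for differences within these groups. The 1 in 20 is therefore not a chance rate for these pairs. The values below are CPM, each followed by that of the nearest other library of the group.

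LCR sedentary 5, the library with the highest Chrng, was set apart in 8 genes. It had 66.3 CPM of Igha (nearest other library 29.4), 461 of Igfn1 (212), 180 of Col11a1 (64.7), 76.5 of Tph1 (22), 181 of Ncam1 (96.5), 368 of Eda2r (237) and 25.2 of Musk (6.71), and it was the lowest for Gys1 with 369 (487). LCR sedentary 2, also high for Chrng, had 16.9 CPM of Col19a1 (4.88) and 291 of Dclk1 (142). LCR running 3, high for Chrng, had 39.1 CPM of Myod1 (17.7), 1140 of Myh1 (183) and 116 of Myh4 (37.1), and the lowest Etfa at 116 (185). HCR sedentary 3, high for Chrng, had 126 CPM of Col11a1 (57.3) and 1240 of Myh1 (594), HCR sedentary 5 the lowest Ptprb at 104 (126), and LCR running 1 the lowest Dnah11 at 21.0 (27.2).

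Libraries low for Chrng were set apart in 7 pairs. HCR running 2 had 23.7 CPM of Cacna1e (3.85) and 307 of Myh4 (55.1). HCR sedentary 4 had the lowest Peg3 at 24.4 (40.7) and the highest Pygm at 314 (238). Single genes were high in LCR sedentary 1 (Golm1, 32.8 against 20.7), HCR sedentary 8 (Mylk3, 46.0 against 29.6) and LCR running 4 (Tatdn3, 21.0 against 13.8).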

How the results depend on the processing

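The count of 210 called genes was 188 to 272 with DESeq2, voom with quality weights, RLE or upper-quartile factors, the title's line, without both libraries of conflicting title (split made again, both medians as low), with the split on TMM-scaled CPM, with the replicate block or with the median libraries counted as low. It was 686 without the filter on low counts (377 higher, 309 lower, or 55% higher against 70.0%), a fit in which the prior degrees of freedom were infinite for all 22741 genes, so that no gene's own spread entered its test. The next settings were chosen after seeing the data: a minimum of 24 counts in all, which gave 212, and both libraries of conflicting title left out with the split kept, which gave 154, 134 of them among the 210. The count was 99 with the median libraries counted as high, 351 with Chrng as a continuous term, 108 with the log2 total count as covariate, 28 in sedentary rats alone (96.4% higher) and 26 in running rats alone, and 133 to 321 without 1 library. The 12 denervation members were 20 without the filter, 5 in sedentary and 1 in running rats, and 10 to 14 without 1 library. The 5 fatty acid members were 15 without the filter, 9 with Chrng continuous, 2 without both libraries of conflicting title (split kept), 3 with the medians as high, 0 in sedentary and 1 in running rats, and 2 to 9 without 1 library. The interaction count for line was 1 with DESeq2 and 0 to 1 without 1 library, and that for running 0 in every refit without 1 library. The replicate block gave 261 genes, 154 of them among the 210, with 60.2% higher. Of 33 pairs of same-numbered libraries 3 had r over 0.1, with r from -0.217 to 0.256. These correlations gave no sign that the numbers pair animals, but they cannot exclude a weak pairing. Of the named genes' values in settings other than leaving out 1 library, 879 stayed on their side of the threshold, 148 lost and 24 gained a call, and 1 reversed, Myh4 in running rats alone (-0.32). With totals of 1.1 to 2.52 megacounts, low transcripts have few counts per library. With the median libraries counted as high, 17 named genes lost their calls, among them Cdkn1a, Gadd45a, Gdf5, Tph1, Kcnq5 and Hadhb, and with the log2 total count as covariate 13, among them Col11a1, Gdf5 and Kcnq5. For these shifts the cause was not tested, except that fits of running or sedentary rats alone hold fewer libraries.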

Other observations

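Called genes outside the lists and the naming rule, are given here as single genes, chosen after their values were seen. The MHC class I light chain B2m averaged 767 ± 137 CPM in high and 576 ± 138 CPM in low libraries (log2 difference 0.36, SE 0.09, adjusted p = 0.0224, edgeR), and RT1-A2, a class I heavy chain with near-identical copies that counting could split, 130 ± 30.7 and 82.0 ± 28.4 CPM (0.62, SE 0.13, adjusted p = 0.0129). The growth factor Tgfb2 (0.53, SE 0.10, adjusted p = 0.00417) and Pmepa1, a target and inhibitor of TGF-beta signalling (0.56, SE 0.13, adjusted p = 0.0268), were higher. The acyl-CoA synthetases Acsl3 (0.88, SE 0.12, adjusted p = 0.000497) and Acsl4 (0.62, SE 0.11, adjusted p = 0.00307) were higher. Single genes that were lower include Ech1, an isomerase for unsaturated fatty acids (-0.56, SE 0.12), the pyruvate dehydrogenase kinase Pdk2 (-0.43, SE 0.08), the transhydrogenase Nnt (-0.40, SE 0.09) and Ogdh of the citric acid cycle (-0.25, SE 0.07). Vgll2, a cofactor that in mice promotes the slow fibre programme, was lower (-0.32, SE 0.08, adjusted p = 0.0199), and Prkag3, the AMP-activated kinase subunit of fast glycolytic fibres, higher (0.78, SE 0.15, adjusted p = 0.0063).

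Th, tyrosine hydroxylase of catecholamine synthesis, differed by 2.53 (SE 0.64, adjusted p = 0.0348) but stood at 0 to 15.9 CPM in high and 0 to 4.38 CPM in low libraries, so it rests on few counts. Like Erbb2 and Col19a1, Th passed the filter on low counts only through high libraries. In the pair of median libraries left out of the split, HCR running 3 and LCR running 2, Chrng stood at 13.0 and 13.3 CPM, Chrna1 at 8.19 and 6.89 CPM and Igfn1 at 19.1 and 53.7 CPM. Runx1 differed more between them, at 469 and 203 CPM, as did Igha, at 21.8 and 3.45 CPM.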
